A study of Arabidopsis thaliana with 12 samples.

Results

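The genes described here were 10 members of the B-box (BBX) family of Arabidopsis thaliana, BBX18 to BBX25 together with BBX30 and BBX31. They were picked by locus identifier (BBX18 is AT2G21320, BBX19 AT4G38960, BBX20 AT4G39070, BBX21 AT1G75540, BBX22 AT1G78600, BBX23 AT4G10240, BBX24 AT1G06040, BBX25 AT2G31380, BBX30 AT4G15248 and BBX31 AT3G21890) from a counts table of 29420 loci. Their levels in the same libraries were already known when they were picked, so the member values and the calls given for members below come from the fit over all genes, describe these libraries and are no independent test of the members. Of the 10 members, 9 had enough counts to pass the filter on low counts and 1, BBX23, did not. The libraries came from whole seedlings aged 14 days, grown on half-strength MS medium at 22 °C with 16 h of light and 8 h of dark. The mutant genotypes were brm-1, which carries a mutant allele of the chromatin remodelling ATPase gene BRM, ref6-1, which carries one of the histone H3K27 demethylase gene REF6, and the combination brm-1 ref6-1. They were set against wild type (WT), with 3 libraries per genotype and 12 in all. Each gene is represented by 1 allele. The labels number the libraries as replicates and also mention RNA pooled over biological replicates, so the spread between libraries may be partly technical. The time of day of harvest is not given in the sources used here.

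B-box proteins are zinc-finger proteins that bind other transcription regulators and, in part, DNA. In seedlings they tune the response to light around HY5, a bZIP activator of light-induced genes that the COP1/SPA ubiquitin ligase marks for destruction in darkness. BBX20, BBX21, BBX22 and BBX23 carry a pair of B-boxes and act with HY5, whereas BBX18, BBX19, BBX24 and BBX25, of the same build, are known mostly as opponents of the light response. BBX30 and BBX31 are microproteins with a single B-box, which can tie the flowering activator CONSTANS (CO, itself BBX1) to the co-repressor TOPLESS (TPL). BRM moves or evicts nucleosomes, and REF6 removes the repressive methyl marks of H3K27 after binding DNA through its own zinc fingers.

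The 250 bases before the annotated start are shown for 5 members, the 3 with the widest range of levels across genotypes (BBX31, BBX30 and BBX18), the one that was higher in 2 mutant genotypes (BBX21) and one that differed little (BBX24). They are RefSeq sequence of assembly TAIR10.1, written 5′ to 3′ on the gene's own strand. Capitals mark the G-box CACGTG and the evening element AAAATATCT, the first a site class bound by HY5 and other bZIP and bHLH factors, the second one bound by clock MYB factors.
BBX18 (chr2:9126013-9126262, + strand): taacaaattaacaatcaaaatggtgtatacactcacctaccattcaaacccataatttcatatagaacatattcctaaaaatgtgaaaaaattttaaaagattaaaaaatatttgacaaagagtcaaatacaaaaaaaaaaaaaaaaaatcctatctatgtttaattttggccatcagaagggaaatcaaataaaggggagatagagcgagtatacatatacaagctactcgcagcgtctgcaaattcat
BBX30 (chr4:8708591-8708840, + strand): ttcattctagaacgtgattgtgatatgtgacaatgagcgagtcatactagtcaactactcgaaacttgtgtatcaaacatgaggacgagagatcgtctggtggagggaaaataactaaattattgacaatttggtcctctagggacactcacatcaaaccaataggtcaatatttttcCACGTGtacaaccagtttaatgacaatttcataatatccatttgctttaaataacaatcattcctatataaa
BBX31 (chr3:7709934-7710183, - strand): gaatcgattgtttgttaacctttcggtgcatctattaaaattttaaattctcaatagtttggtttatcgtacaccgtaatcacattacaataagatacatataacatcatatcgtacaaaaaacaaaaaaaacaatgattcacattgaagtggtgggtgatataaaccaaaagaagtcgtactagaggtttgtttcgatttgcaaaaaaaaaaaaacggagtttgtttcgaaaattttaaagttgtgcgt
BBX21 (chr1:28365574-28365823, + strand): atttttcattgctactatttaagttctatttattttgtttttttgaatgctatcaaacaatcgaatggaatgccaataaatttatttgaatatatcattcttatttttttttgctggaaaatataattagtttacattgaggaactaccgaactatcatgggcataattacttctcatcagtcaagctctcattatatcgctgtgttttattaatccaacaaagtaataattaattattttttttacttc
BBX24 (chr1:1829984-1830233, - strand): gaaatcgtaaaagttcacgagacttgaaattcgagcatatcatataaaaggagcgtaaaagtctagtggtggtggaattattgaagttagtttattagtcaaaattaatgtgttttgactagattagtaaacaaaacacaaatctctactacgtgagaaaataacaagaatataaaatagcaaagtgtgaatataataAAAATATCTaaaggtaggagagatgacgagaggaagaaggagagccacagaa
Both strands of each window were searched. The G-box was present in the window of 1 of the 10 members, BBX30, where it began 72 bases before the start, and in 6.49% of 27443 windows of the same length before annotated genes. The evening element was present in 1 member, BBX24, 52 bases before the start, and in 2.36% of windows. The bare core ACGT, which lies inside the G-box, was present in 4 members (BBX19, BBX20, BBX24 and BBX30) and in 44.1% of windows. In the windows before the start, the CCA1-binding site AAAAATCT was found in none of the 10 members and in 6.69% of windows. The motif bound by REF6 (CTCTGCTC, CTCTGCTT, CTCTGTTC or CTCTGTTT) was likewise found in none of the 10 and in 5.77% of windows. In a longer window, from 500 bases before the start to 1500 bases after it, the G-box was present in 5 of 10 members and in 22.5% of annotated genes, the evening element in 3 of 10 and in 9.34%, and the CCA1-binding site in 5 of 10 and in 30.3%. The ACGT core was present there in all 10 and in 96.4% of annotated genes. The REF6 motif was present there in 6 of 10 members and in 51.8% of annotated genes. The members holding the REF6 motif were BBX18, BBX20, BBX21, BBX24, BBX25 and BBX31, with BBX25 holding it at 3 positions, 2 of them in coding sequence. They comprised 3 of the 5 members that were lower in all mutants and 3 of the other 5.

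Library totals ran from 10119148 to 11860892 counts, and no locus exceeded 6707 counts, a low ceiling that may compress the range. The leaf marker gene RBCS1A had 1213 to 1406 counts in WT libraries, where BBX22, the most counted member there, had 822 to 934. Whether compression reached the members was not tested. BRM had 43 to 74 counts in brm-1 libraries, 2761 to 3012 in ref6-1 libraries and 2998 to 3282 in WT libraries. Of the combined mutant, replicate 1 had 60 BRM counts, replicate 2 had 35 and replicate 3 had 438, so the member differences that use this genotype are also given without replicate 3. REF6 transcripts averaged 80.5 ± 2.6 CPM in ref6-1, 79.4 ± 0.7 in brm-1 ref6-1 and 89.5 ± 6.6 in WT (CPM being counts per 1000000 counts of the TMM-scaled library total, SD, n = 3), so the count over the whole locus did not check that mutation. The summed level of 4 leaf markers overlapped between genotypes. The sum of 5 root markers ran from 318 to 340 CPM in brm-1, from 344 to 368 in ref6-1 and from 325 to 366 in brm-1 ref6-1, against 371 to 410 in WT. The sum of 4 flower markers ran from 12.7 to 14.6 CPM in brm-1, from 11.8 to 13.4 in ref6-1 and from 18.2 to 21.0 in brm-1 ref6-1, against 7.75 to 9.23 in WT. That of 4 seed markers ran from 2.74 to 31.4 CPM in brm-1, from 0.355 to 0.927 in ref6-1 and from 30.1 to 85.8 in brm-1 ref6-1, against 0.341 to 0.643 in WT, where the storage protein gene CRC was at 0. Single markers did not always follow their sum. Of the flower markers, AG was lower in all ref6-1 libraries than in WT, and its mean was also lower in brm-1 ref6-1, with overlap. Its mean was higher in brm-1, and the means of AP1, AP3 and PI were higher than in WT in each mutant genotype. PYK10 was the largest part of the root sum in each genotype, and the root marker RHD6 overlapped WT in each mutant genotype. The part of these markers in the member values below was not tested.

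Of the 9 measured members, 5 (BBX18, BBX19, BBX25, BBX30 and BBX31) were lower in all mutant libraries than in any WT library. Mutant and WT libraries did not overlap for 7 members in brm-1, 6 in ref6-1 and 7 in brm-1 ref6-1, where 36.0%, 30.2% and 46.5% of all genes tested did not. BBX20, BBX21, BBX22 and BBX24 lay within 0.32 of WT on the log2 scale in each mutant genotype. In whole-seedling RNA, fewer cells of a type and less RNA per cell cannot be told apart. At an adjusted p under 0.05, 6 of 9 members passed in brm-1 against WT, 5 lower and 1 higher, where 19.0% of all 22076 genes tested passed, 10.1% lower and 8.88% higher. In ref6-1 against WT, 5 of 9 passed, all lower, beside 7.95% of all genes and 5.63% lower. In brm-1 ref6-1 against WT, 6 of 9 passed, 5 lower and 1 higher, beside 31.2% of all genes, 17.3% lower and 14.0% higher. The median log2 difference of the 9 members was −0.78 in brm-1, −0.73 in ref6-1 and −1.01 in brm-1 ref6-1, and that of all genes tested was within 0.01 of 0 each time. These comparisons share the WT libraries, and the members were known from them, so the counts are descriptive.

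**Figure D1:**
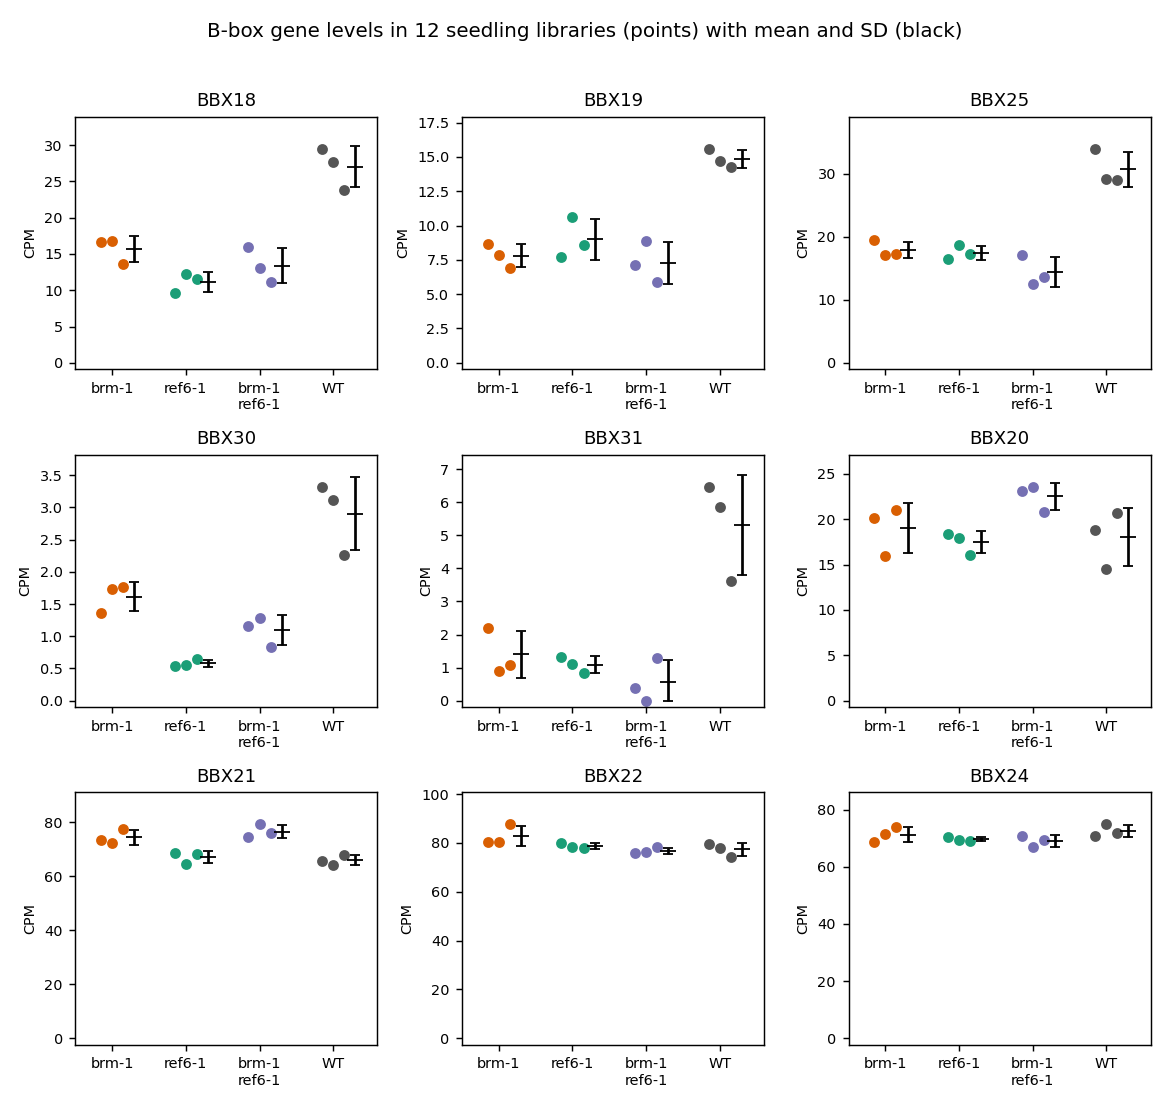
Level of 9 B-box genes in CPM (linear axis) in each of 12 libraries, grouped as brm-1, ref6-1, the combined brm-1 ref6-1 and WT, with the mean and SD of 3 libraries in black (SD bars end at 0). In the first 5 panels the WT points lie above all mutant points, and in the last 3 panels every point is above 60 CPM.

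BBX18 and BBX19 are close relatives that lengthen the hypocotyl in light, and both also act on flowering or temperature responses with the clock protein ELF3. BBX18 had 16.6, 16.8 and 13.7 CPM in brm-1, 9.59, 12.2 and 11.6 CPM in ref6-1, 15.9, 13.1 and 11.2 CPM in brm-1 ref6-1, and 29.5, 27.7 and 23.9 CPM in WT. All 9 mutant libraries lay below the WT libraries, ref6-1 lay below brm-1, and the combined mutant overlapped both single mutants. The log2 difference from WT was −0.78 ± 0.13 in brm-1, −1.28 ± 0.14 in ref6-1 and −1.01 ± 0.14 in brm-1 ref6-1 (± SE from the edgeR fit, here and below), and −0.90 in the last without its replicate 3. BBX19 was a lower transcript, with 8.64, 7.82 and 6.94 CPM in brm-1, 7.73, 10.7 and 8.59 CPM in ref6-1, 7.13, 8.88 and 5.86 CPM in brm-1 ref6-1, and 15.6, 14.7 and 14.3 CPM in WT. Its mutant libraries overlapped one another and none reached a WT library. The log2 differences of BBX19 were −0.93 ± 0.16, −0.73 ± 0.16 and −1.03 ± 0.16 in brm-1, ref6-1 and the combined mutant, and −0.89 in the combined mutant without replicate 3. In ref6-1 BBX19 passed the threshold in 17 of 20 alternative analyses, and not without ref6-1 replicate 1 (−0.62), without WT replicate 1 (−0.69) or at an adjusted p under 0.01.

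BBX24 and BBX25, also known as STO and STH, are a pair of related proteins that bind HY5 and weaken its activity. Their measured levels behaved differently here. BBX24 had 678 to 831 counts per library and BBX25 had 127 to 398. Whether compression of the higher counts narrowed the BBX24 differences was not tested. BBX25 had 19.4, 17.0 and 17.3 CPM in brm-1, 16.4, 18.6 and 17.2 CPM in ref6-1, 17.1, 12.5 and 13.6 CPM in brm-1 ref6-1, and 33.9, 29.1 and 29.0 CPM in WT. The groups of mutant libraries overlapped, and the WT libraries stood apart above them. Its log2 differences from WT were −0.78 ± 0.11 in brm-1, −0.82 ± 0.11 in ref6-1 and −1.09 ± 0.11 in brm-1 ref6-1, or −1.05 without combined replicate 3. BBX25 overlaps AT2G31390 on the opposite strand, and the strand setting of the counting is not given in the sources used here. AT2G31390 averaged 74.0 CPM in brm-1, 88.4 in ref6-1, 77.5 in brm-1 ref6-1 and 92.9 in WT, and whether its reads were counted for BBX25 was not tested. BBX24 had 68.6, 71.4 and 73.9 CPM in brm-1, 70.5, 69.2 and 69.1 CPM in ref6-1, 70.9, 66.9 and 69.4 CPM in brm-1 ref6-1, and 70.8, 74.8 and 71.8 CPM in WT. Its ref6-1 libraries lay just below the WT libraries, 70.5 at most against 70.8 at least, and the other groups overlapped WT. The log2 differences of BBX24 were −0.02 ± 0.04, −0.06 ± 0.04 and −0.07 ± 0.04 in brm-1, ref6-1 and the combined mutant, the narrowest spread of the 9 members, and the last was also −0.07 without replicate 3.

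The microproteins BBX30 and BBX31 had the lowest levels of the 9 measured members, and the largest differences from WT in ref6-1 and in brm-1 ref6-1. BBX30 was counted 16, 19 and 18 times in brm-1, 6, 6 and 7 times in ref6-1, 12, 13 and 9 times in brm-1 ref6-1, and 39, 34 and 25 times in WT. As CPM this was 1.36, 1.73 and 1.76 in brm-1, 0.533, 0.556 and 0.639 in ref6-1, 1.16, 1.28 and 0.837 in brm-1 ref6-1, and 3.32, 3.12 and 2.26 in WT. No group overlapped another, and the order from high to low was WT, brm-1, brm-1 ref6-1 and ref6-1. The log2 differences from WT were −0.85 ± 0.27 in brm-1, −2.31 ± 0.31 in ref6-1 and −1.41 ± 0.28 in brm-1 ref6-1, the last −1.25 without replicate 3. In brm-1 the BBX30 difference rested on few counts and passed the threshold in 5 of 20 alternative analyses, being lost without any library but WT replicate 3 and combined replicate 3, with −0.995 to −0.733 when 1 library was left out. In ref6-1 and in brm-1 ref6-1 it passed in 20 of 20.

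BBX31 was counted 26, 10 and 11 times in brm-1, 15, 12 and 9 times in ref6-1, 4, 0 and 14 times in brm-1 ref6-1, and 76, 64 and 40 times in WT. As CPM this was 2.20, 0.910 and 1.08 in brm-1, 1.33, 1.11 and 0.822 in ref6-1, 0.385, 0 and 1.30 in brm-1 ref6-1, and 6.48, 5.88 and 3.62 in WT. The mutant groups overlapped and the WT libraries stood above them, with WT replicate 3 nearest. A count of 0 allows a level of up to 0.254 to 0.296 CPM, depending on the library, from 3 counts and for counting error only. The log2 differences were −1.91 ± 0.51 in brm-1, −2.28 ± 0.53 in ref6-1 and −3.19 ± 0.59 in brm-1 ref6-1. Replicate 3 of the combined mutant decided the size of the last value, which was −4.70 without replicate 3 and −2.63 without replicate 2. BBX31 passed the threshold in 15 of 20 alternative analyses in brm-1, in 14 of 20 in ref6-1 and in 20 of 20 in brm-1 ref6-1. The brm-1 call was lost without brm-1 replicate 2 or 3, or WT replicate 1 or 2 (−1.83 to −1.67), and the ref6-1 call without any ref6-1 replicate, or WT replicate 1 or 2 (−2.45 to −2.11). The nearest annotated downstream neighbours, BBX9 at 284 bases from BBX30 and BBX10 at 486 bases from BBX31, were at 0 and at no more than 5 counts in any library and could not be tested.

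**Figure D2:**
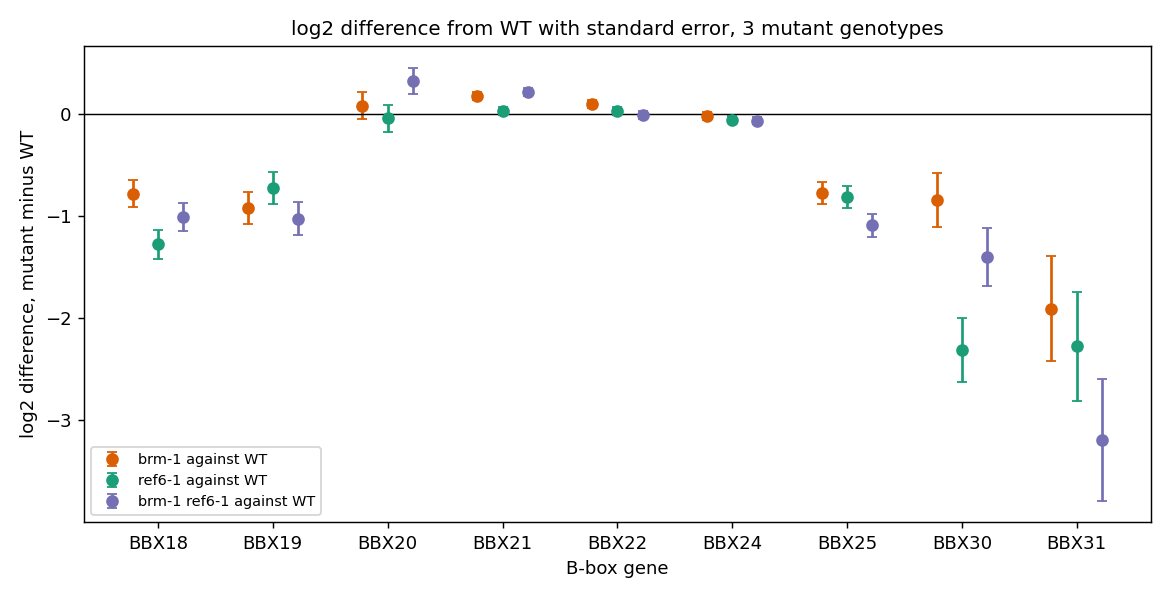
Fitted log2 difference from WT (bars, SE) of 9 B-box genes in brm-1, ref6-1 and the combined mutant. BBX18, BBX19, BBX25, BBX30 and BBX31 lie between −0.73 and −3.19, and BBX20, BBX21, BBX22 and BBX24 between −0.07 and 0.32.

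Among the partners of HY5, BBX21 was the single member that was higher than WT and passed the threshold. BBX21, an activator of HY5 transcription, had 73.6, 72.4 and 77.7 CPM in brm-1, 68.6, 64.6 and 68.3 CPM in ref6-1, 74.6, 79.3 and 76.0 CPM in brm-1 ref6-1, and 65.9, 64.2 and 68.1 CPM in WT. The brm-1 and brm-1 ref6-1 libraries lay above the WT and ref6-1 libraries, and ref6-1 overlapped WT. The log2 differences were small, 0.17 ± 0.04 in brm-1, 0.02 ± 0.04 in ref6-1 and 0.21 ± 0.04 in brm-1 ref6-1, with 0.22 in the last without replicate 3, and DESeq2 did not call the first. BBX22, whose protein is a target of COP1, had 80.3, 80.3 and 87.6 CPM in brm-1, 80.0, 78.2 and 78.0 CPM in ref6-1, 75.9, 76.1 and 78.3 CPM in brm-1 ref6-1, and 79.6, 78.1 and 74.3 CPM in WT. Its brm-1 libraries lay above WT by a log2 difference of 0.10 ± 0.04, which did not pass, and the other groups overlapped WT. In brm-1 ref6-1 the BBX22 difference was −0.03 without replicate 3.

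BBX20, a gene repressed by brassinosteroid signalling, had 20.2, 15.9 and 21.0 CPM in brm-1, 18.4, 17.9 and 16.1 CPM in ref6-1, 23.1, 23.6 and 20.8 CPM in brm-1 ref6-1, and 18.8, 14.5 and 20.7 CPM in WT. The combined mutant libraries lay just above the highest WT library, and the single mutants overlapped WT. Its log2 difference of 0.32 ± 0.13 in brm-1 ref6-1 did not pass, and passed in 1 of 20 alternative analyses, that without WT replicate 3 (0.43). Without combined replicate 3 it was 0.37. BBX20 overlaps AT4G39060 on the opposite strand, whose mean was at most 0.18 CPM in any genotype. BBX24 overlaps AT1G06045, not analysed here. BBX23 was counted 2 times in brm-1 replicate 1, once in WT replicate 2 and 0 times in each of the other 10 libraries, so its level was at or under the limit of detection in each genotype.

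Levels of different members were compared as CPM per kilobase of exon. In WT, BBX24 had 49.1 ± 1.4, BBX22 44.6 ± 1.6 and BBX21 42.1 ± 1.2 CPM per kilobase of exon (SD, n = 3). BBX18 with 24.7 ± 2.6 and BBX25 with 24.2 ± 2.2 followed and did not differ beyond their spread, then BBX20 with 12.7 ± 2.2 and BBX19 with 8.22 ± 0.37. BBX31 with 4.84 ± 1.37 and BBX30 with 4.52 ± 0.88 were lowest of the 9 and did not differ beyond their spread. In brm-1 ref6-1 the order in the middle was another one, with BBX20 at 15.8 ± 1.0, BBX18 at 12.3 ± 2.2 and BBX25 at 11.3 ± 1.9 CPM per kilobase, while BBX21 at 48.8 ± 1.5, BBX24 at 46.8 ± 1.4 and BBX22 at 44.2 ± 0.8 remained the top 3. In ref6-1, BBX30 with 0.897 ± 0.087 lay below BBX31 with 0.989 ± 0.232, within the spread.

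The combined mutant was compared with each single mutant to see what the second mutation added. Against brm-1, none of the 9 members passed in brm-1 ref6-1 by edgeR or by DESeq2, where 4.38% of all genes passed by edgeR. At an unadjusted p under 0.05 in edgeR were 2 of the 9, near the background of 4256 of all 22076 genes tested. The BBX30 libraries of the combined mutant lay below those of brm-1 (log2 difference −0.56 ± 0.30), and the BBX25 difference was −0.32 ± 0.12 with overlapping libraries. Against ref6-1, 1 of 9 passed, BBX21, higher by a log2 difference of 0.19 ± 0.04, where 11.9% of all genes passed, 5.39% higher. BBX30 was higher in brm-1 ref6-1 than in ref6-1 with no overlap, by 0.91 ± 0.36, which did not pass. BBX18 (0.27 ± 0.15), BBX19 (−0.30 ± 0.17) and BBX25 (−0.27 ± 0.12) overlapped between these genotypes, and BBX25 passed without combined replicate 1 (−0.42). BBX20 was higher by 0.37 ± 0.13 without overlap and passed in 2 of 20 alternative analyses. Without combined replicate 3, the differences from brm-1 were −0.40 for BBX30 and −0.28 for BBX25, and those from ref6-1 were 1.06 for BBX30, 0.38 for BBX18, −0.17 for BBX19, −0.24 for BBX25, 0.42 for BBX20 and 0.19 for BBX21.

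For the 5 lower members, the combined mutant lay nearer to WT than the sum of the log2 differences of the single mutants. BBX30 was −1.41 in the combined mutant against a sum of −3.16, a gap of 1.75 ± 0.45. BBX18 was −1.01 against a sum of −2.06, a gap of 1.05 ± 0.20. The gap was 0.62 ± 0.23 for BBX19 and 0.50 ± 0.16 for BBX25. That of BBX31 was 0.99 ± 0.92, within about 1 SE of 0, and its sign turned without combined replicate 3 (−0.51). For BBX21 and BBX24 the gap was 0.02 ± 0.06 and 0.01 ± 0.05, and for BBX20 and BBX22 it was 0.29 ± 0.19 and −0.13 ± 0.06. None of the 9 gaps passed the interaction test of edgeR, where 54 or 0.245% of all genes tested passed, and DESeq2 called 1, BBX18. At an unadjusted p under 0.05 in edgeR were 5 of the 9 gaps, beside 2254 of all 22076 genes tested. The gaps use the WT and single-mutant values that were known when the members were picked. Picking genes that are low in both single mutants favours gaps above 0, so these counts are descriptive. Without combined replicate 3, BBX18 was called by edgeR too, with a gap of 1.16, and the gap was 1.91 for BBX30, 0.76 for BBX19, 0.54 for BBX25, 0.34 for BBX20, −0.15 for BBX22, 0.02 for BBX21 and 0.01 for BBX24.

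**Figure D3:**
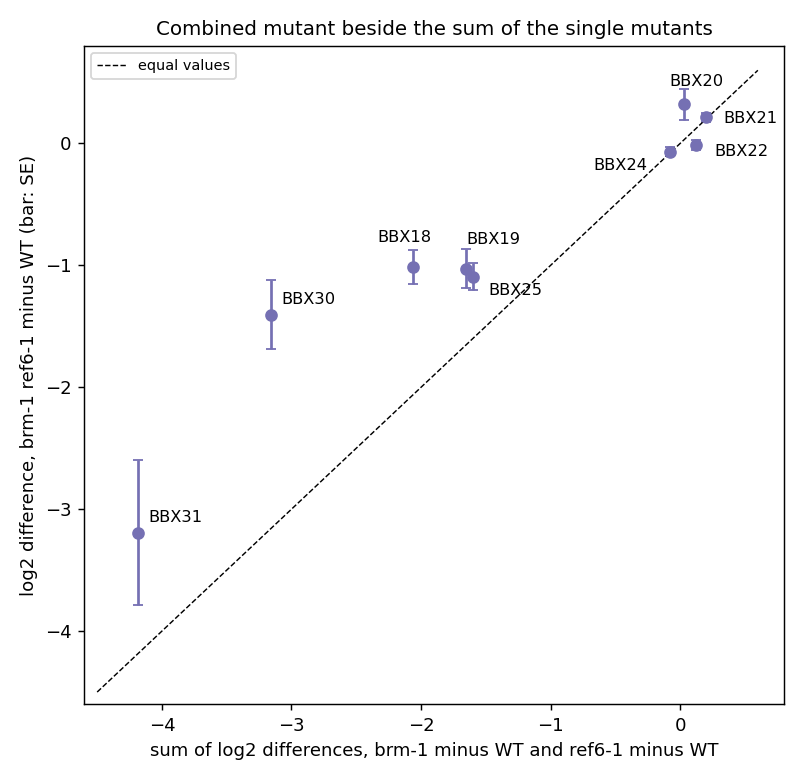
Fitted log2 difference of brm-1 ref6-1 from WT (vertical axis, bars SE) against the sum of the log2 differences of brm-1 and ref6-1 from WT (horizontal axis) for 9 B-box genes, with the line of equal values. BBX18, BBX19, BBX25, BBX30 and BBX31 lie above the line, by 0.50 to 1.75. BBX20, BBX21 and BBX24 lie above it by 0.29, 0.02 and 0.01, and BBX22 differs from it by −0.13. The bars do not give the error of the distance to the line, whose SE is larger (0.92 for BBX31).

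Likeness between profiles was measured as the root mean square difference of log2 CPM, each gene centred on its own mean, over the 12 libraries. Among the members, BBX22 and BBX24 were nearest to each other (0.0571), and BBX21 lay 0.103 from BBX22. Many other genes lay nearer, since BBX24 ranked 423 among all genes by nearness to BBX22, and BBX22 ranked 4559 by nearness to BBX21. BBX19 and BBX25 were 0.208 apart, where BBX25 ranked 12 by nearness to BBX19, and BBX18 and BBX25 were 0.24 apart, where BBX25 ranked 18 by nearness to BBX18. BBX30 and BBX31 were 1.16 apart, where BBX30 ranked 1263 by nearness to BBX31 and BBX31 ranked 21510 by nearness to BBX30. BBX18 and BBX30 were 0.349 apart, where BBX18 ranked 7 by nearness to BBX30 and BBX30 ranked 197 by nearness to BBX18. Over all tested genes, the 3 nearest to BBX18 were CDF1 (0.142), a DOF repressor of CO, the glutaredoxin-family gene AT1G64500 (0.166) and the clock gene LHY (0.172). CDF1 averaged 21.9 CPM in brm-1, 15.6 in ref6-1, 15.6 in brm-1 ref6-1 and 35.3 in WT. The nearest to BBX30 were AT2G19650 (0.253), annotated as a C1 domain family protein, the F-box gene AT4G34550 (0.313) and the alternative NADH dehydrogenase gene NDA1 (0.315). NDA1 averaged 33.0 CPM in brm-1, 14.6 in ref6-1, 19.1 in brm-1 ref6-1 and 41.7 in WT. The nearest to BBX31 were the ADP-glucose pyrophosphorylase gene APS2 (0.526), the aldehyde reductase gene AT3G04000 (0.566) and AT1G78230 (0.585), and APS2 averaged 4.11, 2.48 and 1.04 CPM in brm-1, ref6-1 and the combined mutant, and 11.9 CPM in WT.

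The rest of the B-box family comprised 22 further genes, of which 19 were measured. In brm-1, 2 rose and 2 fell, in ref6-1 1 rose and 4 fell, and in brm-1 ref6-1 5 rose and 6 fell, where 19.0%, 7.95% and 31.2% of all genes passed, so the brm-1 count was near the background. The family had medians of 0.04, 0.05 and 0.07 on the log2 scale, against medians within 0.01 of 0 over all genes. CO, the photoperiod flowering activator, rose by 1.19 ± 0.12 in brm-1 (adjusted p = 6.39e-05), by 0.56 ± 0.13 in ref6-1 (adjusted p = 0.0184) and by 1.08 ± 0.12 in brm-1 ref6-1 (adjusted p = 7.21e-05), by edgeR's quasi-likelihood test with Benjamini-Hochberg adjustment over all genes, here and below. BBX2, a close relative of CO, fell by 0.49 ± 0.11 in brm-1 (adjusted p = 0.0113), by 1.18 ± 0.12 in ref6-1 (adjusted p = 0.000159) and by 0.82 ± 0.12 in brm-1 ref6-1 (adjusted p = 0.000399). It averaged 33.7 ± 3.3 CPM in brm-1, 20.9 ± 2.8 in ref6-1, 26.9 ± 3.3 in brm-1 ref6-1 and 47.2 ± 5.5 in WT (SD, n = 3). BBX17 rose by 0.60 ± 0.05 in brm-1 and by 0.68 ± 0.05 in brm-1 ref6-1, with 0.14 ± 0.05 in ref6-1, which did not pass (adjusted p = 0.137). BBX32, whose protein binds BBX21 and counters it, averaged 9.25 ± 3.63 CPM in brm-1, 3.19 ± 1.14 in ref6-1, 2.87 ± 1.12 in brm-1 ref6-1 and 11.95 ± 2.39 in WT. It fell by 1.90 ± 0.34 in ref6-1 (adjusted p = 0.00575) and by 2.05 ± 0.35 in brm-1 ref6-1 (adjusted p = 0.00106), with −0.38 ± 0.30 in brm-1 (adjusted p = 0.449). BBX28, with a single B-box and known to restrain HY5, fell in ref6-1 (−0.28 ± 0.06) and brm-1 ref6-1 (−0.33 ± 0.06), and BBX13 rose in brm-1 ref6-1 (0.16 ± 0.04). The CO call in ref6-1 was lost without ref6-1 replicate 2 (adjusted p = 0.0804) or WT replicate 1 (adjusted p = 0.0753), and the BBX2 call in brm-1 without brm-1 replicate 2 (adjusted p = 0.0529). The BBX28 call in ref6-1 was lost without ref6-1 replicate 1 or 2, or WT replicate 2 or 3 (adjusted p between 0.0536 and 0.0895). BBX9 and BBX26 had 0 counts in all libraries and BBX10 at most 5.

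**Figure D4:**
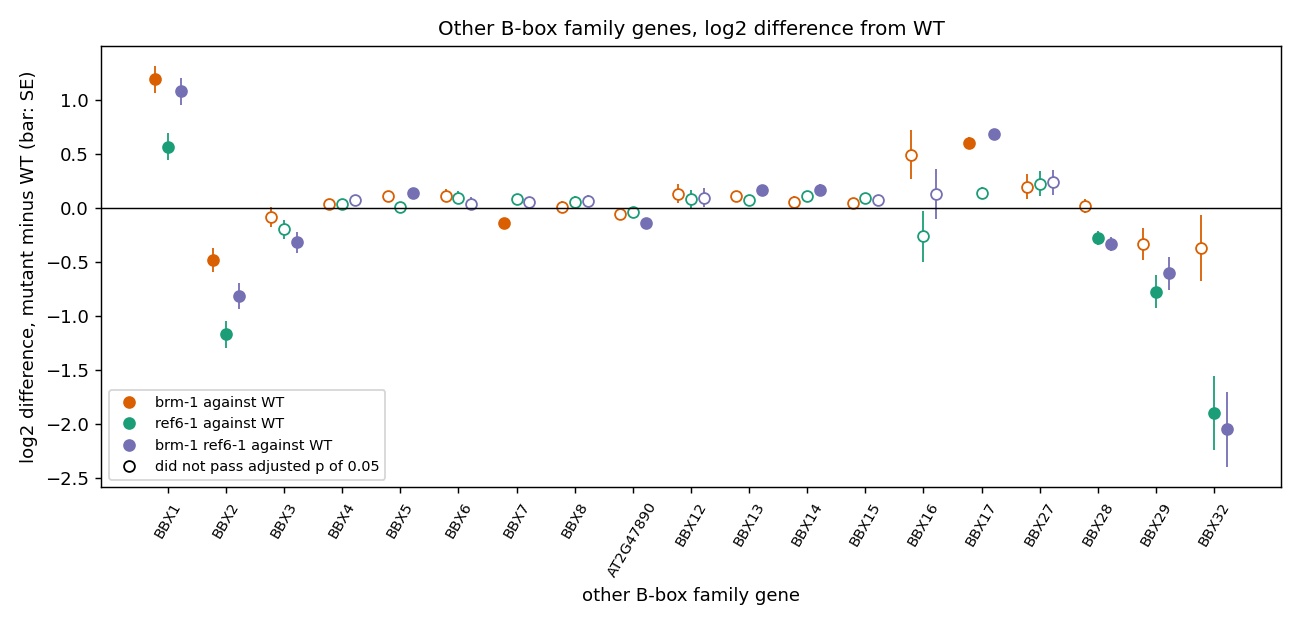
Fitted log2 difference from WT (bars, SE) of the 19 measured genes of the rest of the B-box family in brm-1, ref6-1 and the combined mutant. Filled points passed an adjusted p under 0.05, with BBX1 (CO) highest at 1.19 in brm-1 and BBX32 lowest at −2.05 in brm-1 ref6-1.

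The members act with or against HY5 and the COP1/SPA ligase, and 18 genes of that machinery were all measured. In brm-1, 3 rose and 5 fell, in ref6-1 none rose and 5 fell, and in brm-1 ref6-1 5 rose and 6 fell, beside 19.0%, 7.95% and 31.2% of all genes. SPA3, a partner of COP1, averaged 75.5 ± 6.6 CPM in brm-1, 78.0 ± 1.3 in ref6-1, 73.9 ± 4.7 in brm-1 ref6-1 and 119.5 ± 6.9 in WT (SD, n = 3). It fell by 0.66 ± 0.06 in brm-1 (adjusted p = 3.59e-05), by 0.62 ± 0.06 in ref6-1 (adjusted p = 0.000101) and by 0.69 ± 0.06 in brm-1 ref6-1 (adjusted p = 1.5e-05). SPA1 fell by 0.23 to 0.29 and SPA4 by 0.21 to 0.47 in the 3 mutants, and the SPA4 call in brm-1 ref6-1 was lost without combined replicate 3 (adjusted p = 0.0527). COP1 fell by 0.11 ± 0.03 in brm-1 (adjusted p = 0.0303) and by 0.17 ± 0.03 in brm-1 ref6-1 (adjusted p = 0.00105), and the brm-1 call was lost without any of the brm-1 replicates, or WT replicate 1 (adjusted p between 0.0519 and 0.167). HY5 averaged 34.5 ± 3.5 CPM in brm-1, 34.1 ± 2.7 in ref6-1, 36.1 ± 2.5 in brm-1 ref6-1 and 39.8 ± 3.3 in WT and did not pass (adjusted p = 0.121, 0.13 and 0.226 in brm-1, ref6-1 and the combined mutant). HYH, the homologue of HY5, fell by 0.50 ± 0.10 in brm-1, by 0.43 ± 0.10 in ref6-1 and by 0.53 ± 0.10 in brm-1 ref6-1. The HYH call in ref6-1 was lost without ref6-1 replicate 2 or 3, or WT replicate 1 (adjusted p between 0.0564 and 0.0843). HFR1, a bHLH factor degraded through COP1, rose by 0.57 ± 0.11 in brm-1 and by 0.72 ± 0.11 in brm-1 ref6-1, and the photoreceptor gene PHYA by 0.18 ± 0.03 in brm-1 ref6-1.

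Of 14 genes known to be controlled by HY5 and B-box proteins, 1 rose and 7 fell in brm-1, 1 rose and 2 fell in ref6-1, and none rose and 8 fell in brm-1 ref6-1, beside 19.0%, 7.95% and 31.2% of all genes. Without ref6-1 replicate 2, 1 of the 14 was called in ref6-1. SIG5, a chloroplast sigma factor gene, averaged 46.7 ± 2.2 CPM in brm-1, 40.9 ± 0.2 in ref6-1, 37.3 ± 2.7 in brm-1 ref6-1 and 73.6 ± 4.7 in WT (SD, n = 3). It fell by 0.66 ± 0.06, 0.85 ± 0.06 and 0.98 ± 0.06 in brm-1, ref6-1 and the combined mutant (adjusted p = 2.02e-05, 7.9e-06 and 1.33e-06). ELIP1, an early light-induced protein gene, fell by 0.91 ± 0.13 in brm-1, by 0.66 ± 0.13 in ref6-1 and by 1.09 ± 0.14 in brm-1 ref6-1, and its ref6-1 call was lost without ref6-1 replicate 2 (adjusted p = 0.0526). CHS, CHI, F3H and FLS1, which encode enzymes of flavonol synthesis, fell in brm-1 and brm-1 ref6-1, where the log2 differences of FLS1 were −0.62 ± 0.05 and −0.53 ± 0.05, those of F3H −0.42 ± 0.06 and −0.41 ± 0.06, and that of CHI −0.30 ± 0.05 in both. CHS fell by 0.21 ± 0.03 in brm-1 and by 0.11 ± 0.03 in brm-1 ref6-1, the second call being lost without combined replicate 3, or WT replicate 2 or 3 (adjusted p between 0.0682 and 0.105). In ref6-1 none of these 4 passed (adjusted p between 0.0913 and 0.811), and FLS1 did without ref6-1 replicate 1 (adjusted p = 0.0496). MYB12 and MYB111, regulators of flavonol synthesis in the same list, were singled out after their values were seen and went different ways. MYB12 fell by 0.85 ± 0.18 in brm-1 (adjusted p = 0.00788) and by 0.83 ± 0.18 in brm-1 ref6-1 (adjusted p = 0.00625). MYB111 rose by 0.73 ± 0.19 in brm-1 (adjusted p = 0.0193), with 0.41 ± 0.19 in brm-1 ref6-1, which did not pass (adjusted p = 0.131). The MYB111 call in brm-1 was lost without brm-1 replicate 1, or WT replicate 2 or 3 (adjusted p between 0.0581 and 0.0695).

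BBX30, BBX31 and BBX19 are known to hold back CO or its target, the florigen gene FT, and 5 of the 6 genes of this module were measured. In each mutant CO, FT and SOC1, a flowering integrator gene, rose, and TPL fell in brm-1 and brm-1 ref6-1. Thus 4 of 5 passed in brm-1, 3 in ref6-1 and 4 in brm-1 ref6-1, beside 19.0%, 7.95% and 31.2% of all genes. FT averaged 9.92 ± 1.18 CPM in brm-1, 9.88 ± 0.33 in ref6-1, 13.8 ± 1.9 in brm-1 ref6-1 and 4.04 ± 0.57 in WT (SD, n = 3). It rose by 1.29 ± 0.16 in brm-1 (adjusted p = 0.000147), by 1.29 ± 0.16 in ref6-1 (adjusted p = 0.000346) and by 1.77 ± 0.15 in brm-1 ref6-1 (adjusted p = 1.1e-05). SOC1 rose by 0.25 ± 0.06, 0.38 ± 0.06 and 0.41 ± 0.06 in brm-1, ref6-1 and the combined mutant, and its brm-1 call was lost without brm-1 replicate 2 or 3, or WT replicate 1 (adjusted p between 0.0525 and 0.0612). TPL fell by 0.17 ± 0.03 in brm-1 (adjusted p = 0.00184) and by 0.10 ± 0.03 in brm-1 ref6-1 (adjusted p = 0.0277), and the second call was lost without any of 5 libraries, combined replicates 1 and 3 and the 3 of WT (adjusted p between 0.0503 and 0.0828). TSF, a sister gene of FT, did not pass the filter on low counts.

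Several B-box genes are known to cycle with the day. Of 13 clock genes, 1 rose and 5 fell in brm-1, none rose and 5 fell in ref6-1, and none rose and 7 fell in brm-1 ref6-1, beside 19.0%, 7.95% and 31.2% of all genes. RVE8, an activator of evening genes, averaged 23.4 ± 1.6 CPM in brm-1, 16.7 ± 2.8 in ref6-1, 14.0 ± 1.8 in brm-1 ref6-1 and 52.7 ± 6.3 in WT (SD, n = 3). It fell by 1.17 ± 0.12 in brm-1 (adjusted p = 5.79e-05), by 1.66 ± 0.12 in ref6-1 (adjusted p = 1.14e-05) and by 1.92 ± 0.13 in brm-1 ref6-1 (adjusted p = 1.95e-06). PRR9, a daytime repressor, fell by 0.80 ± 0.14, 1.29 ± 0.15 and 1.81 ± 0.15 in brm-1, ref6-1 and the combined mutant, and RVE1 by 1.21 ± 0.11, 1.02 ± 0.11 and 1.28 ± 0.11. LHY fell in ref6-1 (−1.39 ± 0.22) and brm-1 ref6-1 (−1.11 ± 0.22), with −0.57 ± 0.21 in brm-1, which did not pass (adjusted p = 0.0826) but did in 3 of 20 alternative analyses, by limma-voom (adjusted p = 0.0287), by DESeq2 (adjusted p = 0.036) and without combined replicate 3 (adjusted p = 0.0451). CCA1 fell in all 3 mutants, by 0.47 ± 0.14 in brm-1, where the call was lost without any brm-1 replicate or without WT replicate 1 or 2 (adjusted p between 0.0631 and 0.115). PRR5 fell in brm-1 (−0.14 ± 0.04) and brm-1 ref6-1 (−0.21 ± 0.04), and the brm-1 call was lost without brm-1 replicate 2 (adjusted p = 0.0776) or WT replicate 1 (adjusted p = 0.0615). In ref6-1 PRR5 was −0.12 ± 0.04 and did not pass (adjusted p = 0.0516) but did in 4 of 20 alternative analyses (adjusted p between 0.0323 and 0.0487), among them those without brm-1 replicate 3 and without combined replicate 1. The part of the clock genes or of the time of harvest in the member values was not tested.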

How the data were processed

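Total RNA of 12 seedling libraries (4 genotypes, 3 libraries each) was sequenced as paired-end reads, per the labels' protocols. The labels number the libraries as replicates and state that RNA of biological replicates was pooled, so p-values may measure only technical spread. The deposited table holds raw read counts per locus, which the authors made from TopHat2 alignments (genome TAIR10), per the submitters' processing notes. No source used here names the counting tool or its strand setting.

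The members and the other gene lists were chosen with earlier results of these data known. Counts were fitted with edgeR 4.0.16 in R 4.3.3 with 1 mean per genotype, TMM normalization and filterByExpr, which kept 22076 of 29420 loci. A gene passed at a Benjamini-Hochberg adjusted p under 0.05 over all genes tested, from the two-sided quasi-likelihood F test with robust dispersion. SE is the log2 difference divided by the root of F, and CPM uses the TMM-scaled library total. On simulated data shaped on brm-1 against WT, the test recovered 98% of genes changed by 2 and 79.8% of genes changed by 1 on the log2 scale. The simulation held 99 genes of each size and 21624 unchanged genes, whereas 4193 genes passed in the data. These rates therefore need not hold for the data, and smaller changes were not simulated. Alternatives were DESeq2 1.42.0, limma-voom (limma 3.58.1), DESeq2 size factors, both low-count filters, a threshold of 0.01, only the groups compared, a replicate term, and each library left out. Totals of 10119148 to 11860892 counts per library limit precision. The floors cover counting error only, whereas SD and SE also cover the spread between libraries, which may be partly technical.

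Named besides the members were, of each further list, up to 6 genes that passed against WT, with the smallest adjusted p, HY5, HYH, COP1, CO, FT and TPL whatever their result, BRM and REF6, the 3 genes nearest in profile to each of 3 members, and BBX9 and BBX10. Exon lengths, gene positions and promoter windows came from the RefSeq annotation of TAIR10.1, matched by locus identifier for all 10 members. No 2 libraries of a genotype agreed within sampling noise (chi-square per degree of freedom 1.63 to 4.20).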

Additional observations from a re-analysis of the deposited data

Results flagged for a closer look

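Several genes outside the 10 members passed the test for a log2 difference of one mutation that depended on the other mutation. By the interaction test of edgeR this held for SPA3 (0.584 ± 0.089, adjusted p = 0.0234), SPA4 (0.526 ± 0.080, adjusted p = 0.0228), SPA1 (0.239 ± 0.040, adjusted p = 0.032), SIG5 (0.523 ± 0.085, adjusted p = 0.032) and RVE1 (0.946 ± 0.159, adjusted p = 0.032). Each value is the difference of brm-1 ref6-1 from WT minus the sum of the differences of brm-1 and ref6-1 from WT. For these 5 genes the combined mutant thus lay nearer to WT than that sum. None of the 5 had an adjusted p under 0.01. Their interaction values were not followed through the alternative analyses, including that without combined replicate 3. Over all genes, 54 passed the interaction test, and 12 did without ref6-1 replicate 2.

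BBX30 was marked because the brm-1 mutation went with lower levels in all libraries where REF6 was intact and with higher levels in all libraries of the ref6-1 background, with a difference of 1.75 ± 0.45. For SPA4 the same split was seen (0.526). For TPL, the ref6-1 mutation went with lower levels in an otherwise WT background and with higher levels in the brm-1 background, with a difference of 0.135 ± 0.043. For these opposite directions no separate test was made, and of the 3 genes SPA4 passed the interaction test.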

How the results depend on the processing

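Of 1016 alternative values for the 54 log2 differences of the members, 1011 stayed within the replicate spread, 5 moved further, all of BBX31, and no called value changed sign. A value stayed within that spread if it moved by less than 1 SD of single libraries. Leaving out 1 of 3 libraries can seldom move a value that far, so the count of 1011 is a weak check. Of 1857 alternatives for 93 values of named genes, 1788 kept their side of the threshold, 56 lost the call and 13 gained it. No called value changed sign, but some small values that were not called did, such as BBX28 in brm-1 (0.01 to −0.02). With an adjusted p under 0.01, the genes called numbered 2138 in brm-1, 622 in ref6-1, 3835 in brm-1 ref6-1, 279 in brm-1 ref6-1 against brm-1, 1194 against ref6-1 and 12 in the interaction. At that threshold 3 members were called in ref6-1, other B-box genes numbered 2, 3 and 7 in brm-1, ref6-1 and the combined mutant, light-signalling partners 5 in brm-1 and 3 in ref6-1, HY5 and BBX target genes 1 in ref6-1, and clock genes 3 in brm-1. DESeq2 called 95 genes and 1 member in the interaction and 5 light-signalling partners in brm-1. Only the groups compared gave 2 members in brm-1 ref6-1 against ref6-1, and gave no interaction value. The cause of these shifts, other than the stricter threshold, was not tested.

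Without 1 library at a time, which also leaves fewer samples, genes called ran from 2705 (without brm-1 replicate 2) to 4491 in brm-1, from 862 (without WT replicate 1) to 1985 in ref6-1, from 364 (without combined replicate 2) to 1144 in brm-1 ref6-1 against brm-1, from 1695 to 2632 against ref6-1 and from 12 (without ref6-1 replicate 2) to 55 in the interaction. Members called ran from 4 to 6, 3 to 5 and 6 to 7 in brm-1, ref6-1 and the combined mutant, from 1 to 2 against ref6-1 and from 0 to 1 in the interaction. Other B-box genes ran from 3 to 5 in brm-1 and in ref6-1 and from 7 to 12 in brm-1 ref6-1, light-signalling partners from 5 to 9, 3 to 5 and 8 to 12, HY5 and BBX target genes from 1 to 3 in ref6-1, CO-FT genes from 2 to 3 in ref6-1, and clock genes from 3 to 6 in brm-1.

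Whether the replicate numbers pair the samples was not settled. Over 18 same-number pairs the deviations from the genotype mean correlated between −0.189 and 0.291, 6 of them above 0.1. Pairs of different number correlated between −0.305 and 0.256. With the replicate block, 1 member, BBX18, was called in the interaction (value 1), and BBX30 in brm-1 was not called. The block also called HY5 in brm-1 and in ref6-1 (adjusted p = 0.0303 and 0.0381) and FLS1 in ref6-1 (adjusted p = 0.0232), and lost CCA1 in brm-1 (adjusted p = 0.0563). DESeq2 did not call COP1 (adjusted p = 0.225) and PRR5 (adjusted p = 0.0527) in brm-1, nor CHS (adjusted p = 0.116) and TPL (adjusted p = 0.07) in brm-1 ref6-1. BBX30 with 6 to 39 and BBX31 with 0 to 76 counts per library are the members that depth limits most.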
